A study of Mus musculus with 9 samples.

Results

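Mitochondrial carriers of the SLC25 family and the uncoupling proteins were examined on arrays of the murine pancreatic cancer line Pan02. Members were taken by gene symbol, as every *Slc25a* gene with a number and *Ucp1*, *Ucp2* and *Ucp3*. This gave 48 of the 19505 genes with a symbol, namely 46 *Slc25a* genes and 2 uncoupling protein genes (*Ucp1* and *Ucp3*), each with 1 probe set. *Ucp2* was not analysed here.

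RNA came from 4 lentivirally transduced Pan02 lines. Pan02OE overexpressed NLRX1, a Nod-like receptor of mitochondria, from an open reading frame construct, and Pan02OECTL was its control for the same vector system. Pan02KD received a short hairpin RNA against NLRX1, and Pan02KDCTL a scrambled control. Each line was a single puromycin-selected, GFP-tagged population, kept in normal medium or challenged for 24 hours with a low dose of H2O2, with 1 Clariom S array for each line and medium, 8 arrays in all. Because the vector systems differ, the study set each modified line only against its own control.

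SLC25 carriers sit in the inner mitochondrial membrane and move nucleotides, phosphate, organic acids, amino acids and cofactors between matrix and cytosol. A few members lie elsewhere, as *Slc25a17* in the peroxisome and *Slc25a46* on the outer mitochondrial membrane. Uncoupling proteins belong to the same family. UCP1 lets protons back into the matrix without ATP synthesis and makes heat in brown fat, and UCP3 is found mainly in muscle. Carriers are made in the cytosol and inserted into the inner membrane by the TIM22 complex, helped by small chaperones of the space between the membranes.

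*Nlrx1* read 17.10 in normal medium and 17.31 in H2O2 (log2 signal) in Pan02OE, and 6.89 and 6.90 in Pan02OECTL. It read 6.68 and 6.56 in the arrays labelled Pan02KD, and 5.96 and 6.40 in Pan02KDCTL. It was thus far higher in Pan02OE, and was not lower in the arrays labelled Pan02KD than in their control, so these arrays do not themselves show the loss and directions below that involve Pan02KD follow the label. All arrays other than those of Pan02OE lay below 7.48, the brightest of 23 antigenomic probe sets, which match no mouse sequence and gauge background, and a partial loss there was not measurable. The study checked its lines by GFP and by western blot for NLRX1 protein, which are not array data. Array medians over all genes ran from 6.51 to 6.58. Of 7 epithelial markers, *Krt7*, *Krt8*, *Krt18*, *Krt19* and *Cdh1* were above background on every array, and *Epcam* and *Cldn4* on none. Their summed level was 82.53 and 82.95 in Pan02OE, 74.50 and 74.76 in Pan02OECTL, 72.39 and 72.18 in the arrays labelled Pan02KD, and 76.88 and 75.11 in Pan02KDCTL. The first 5 were all higher in Pan02OE, from 0.84 for *Krt18* to 2.13 for *Cdh1*. The arrays labelled Pan02KD were lower for *Krt19* (-2.66), *Krt7* (-2.09) and *Cldn4* (-0.85, at background) and higher for *Cdh1* (2.37). All 3 leukocyte and both erythroid markers measured were below background on every array, and of 5 fibroblast and mesenchymal markers only *Vim* was above it on every array. *Pdgfrb* of that list was lower in Pan02OE (-0.66, at background) and in the arrays labelled Pan02KD (-1.35). The part of any shift in cell state in the carrier results was not tested, and in bulk RNA fewer cells of a kind cannot be told apart from less RNA per cell.

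The starts of 4 carrier genes are shown because these genes are among those with the largest measured differences below. For *Slc25a23* background limits what the measured difference means. Each run is the stretch from 250 bases before to 50 after an annotated start in RefSeq (build GRCm38.p6), read 5′ to 3′ along the gene's strand, with capitals for 3 motifs on either strand. One is the GC box, bound by SP1 and its relatives and spelled GGGCGG. Another is the cAMP response element, spelled TGACGTCA. The last is the box with the letters of its own name, CCAAT. None of them overlaps another in these windows.
Slc25a48: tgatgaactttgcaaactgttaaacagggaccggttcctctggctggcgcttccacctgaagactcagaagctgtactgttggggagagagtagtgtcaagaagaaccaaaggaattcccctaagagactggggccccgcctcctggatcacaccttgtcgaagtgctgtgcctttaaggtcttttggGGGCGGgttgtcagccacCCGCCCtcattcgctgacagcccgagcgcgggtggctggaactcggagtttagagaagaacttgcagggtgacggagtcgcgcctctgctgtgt
Slc25a25: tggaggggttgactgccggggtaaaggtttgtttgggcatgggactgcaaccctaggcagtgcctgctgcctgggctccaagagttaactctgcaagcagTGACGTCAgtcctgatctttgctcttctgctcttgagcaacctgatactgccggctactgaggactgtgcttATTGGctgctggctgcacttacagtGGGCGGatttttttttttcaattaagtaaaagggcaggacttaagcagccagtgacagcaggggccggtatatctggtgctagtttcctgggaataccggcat
Slc25a30: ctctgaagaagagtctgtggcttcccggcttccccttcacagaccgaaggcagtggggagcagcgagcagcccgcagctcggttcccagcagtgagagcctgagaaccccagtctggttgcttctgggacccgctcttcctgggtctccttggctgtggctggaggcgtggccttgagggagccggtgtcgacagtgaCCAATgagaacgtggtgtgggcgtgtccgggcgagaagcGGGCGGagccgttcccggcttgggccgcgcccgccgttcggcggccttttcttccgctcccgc
Slc25a23: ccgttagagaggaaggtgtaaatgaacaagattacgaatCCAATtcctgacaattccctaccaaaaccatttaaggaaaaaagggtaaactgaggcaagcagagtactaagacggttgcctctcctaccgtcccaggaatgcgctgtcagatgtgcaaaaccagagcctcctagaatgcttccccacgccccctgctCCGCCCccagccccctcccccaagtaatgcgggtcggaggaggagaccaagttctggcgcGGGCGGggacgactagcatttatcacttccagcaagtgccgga

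The Slc25a48 window, at chr13:56438105-56438404 on the plus strand, held 2 GC boxes and no CCAAT box. The Slc25a25 window, at chr2:32424017-32424316 on the minus strand, is 1 of 3 starts of this gene. It was the one printed because it held a cAMP response element, which the windows of the other starts lacked. It also held 1 CCAAT box and 1 GC box. The Slc25a30 window (chr14:75786988-75787287, minus strand) held 1 GC box and 1 CCAAT box, and the Slc25a23 window (chr17:57059814-57060113, minus strand) held 2 GC boxes and 1 CCAAT box. Promoter windows were at hand for 38 of the 48 genes. A GC box stood in a window of 30 of these 38, against 38.2% of all 27025 genes with a window, and a CCAAT box in 19 of 38, against 41.1%. The full cAMP response element occurred only in *Slc25a25* and *Slc25a36* among the 38 (2.03% of all genes). The half-site of estrogen-related receptors (AAGGTCA), partners of PGC-1α, occurred only in *Slc25a34* (5.38%), a TATA box (TATAAA) in *Slc25a18* and *Slc25a21* (15.7%), and the NRF1 site in none (1.07%). The windows of the 38 genes had a median GC content of 59.3% and a median of 15 CpG, against 52.7% and 7 over all windows. A match of letters is a description of the window and not a measured site.

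Of the 48 genes, 27 had line means above background in all 4 lines, and 5 (*Slc25a13*, *Slc25a22*, *Slc25a23*, *Slc25a26* and *Slc25a53*) in some lines. The other 16 were below it in every line. These were *Ucp1*, *Ucp3*, the neuronal uncoupling protein relatives *Slc25a27* and *Slc25a14*, the testis ADP/ATP carrier *Slc25a31*, the coenzyme A carrier *Slc25a42*, and *Slc25a2*, *Slc25a18*, *Slc25a21*, *Slc25a29*, *Slc25a34*, *Slc25a35*, *Slc25a41*, *Slc25a43*, *Slc25a47* and *Slc25a54*. For them the array gives only the statement that no line was above background.

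Both uncoupling proteins measured stayed at background throughout. *Ucp1* read between 3.25 and 3.98 on the 8 arrays and *Ucp3* between 4.63 and 4.97. The arrays labelled Pan02KD overlapped with those of Pan02KDCTL for both genes, while Pan02OE and Pan02OECTL lay apart by narrow gaps, with *Ucp1* higher and *Ucp3* lower in Pan02OE. The Pan02OE difference of *Ucp1* was 0.14 (95% interval from -0.22 to 0.51, adjusted p = 0.65 by limma) and that of the arrays labelled Pan02KD was -0.33 (from -0.70 to 0.03, adjusted p = 0.24). For *Ucp3* the differences were -0.10 (from -0.47 to 0.28, adjusted p = 0.78) and 0.05 (from -0.32 to 0.43, adjusted p = 0.89). Of the 5 members grouped as uncoupling proteins and their relatives, only *Slc25a30* was above background.

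To ask which carriers differed with NLRX1 overexpression, Pan02OE was compared with Pan02OECTL, with the media as the repeats. In Pan02OE, 12 of 48 carriers passed an adjusted p under 0.05, which is 25% of them beside 16.5% of all genes. 7 were higher and 5 lower, all with the same sign in both media. The share over all genes includes many below background. In a fit of genes with a line mean above it, 15 of 32 carriers and 3706 of 8787 genes passed, shares that lie closer together. Here and below, that filter keeps a gene by its highest line mean, so it is not independent of differences between lines. *Slc25a22* and *Slc25a23* entered only through Pan02OECTL. The median difference over the 48 was 0.00 and over all genes 0.04, and the median size of a difference was 0.23 and 0.22. The 12 were spread over roles. They comprised 3 of 8 carriers of ADP, ATP and phosphate, 3 of 9 amino acid carriers, 2 of 10 carriers of cofactors, nucleotides and glutathione, 1 of 5 carriers of organic acids and carnitine, 1 of 5 uncoupling relatives and 2 of 9 others.

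Against Pan02KDCTL, 8 of 48 carriers passed in the arrays labelled Pan02KD, which is 16.7% of them beside 13.6% of all genes. 3 were higher and 5 lower, again with the same sign in both media. Among genes with a line mean above background, 11 of 32 carriers and 3220 of 8787 genes passed, the share of carriers being the smaller. 5 genes passed in both comparisons (*Slc25a25*, *Slc25a30*, *Slc25a44*, *Slc25a45* and *Slc25a48*), which is 41.7% of the first list and 62.5% of the second, and each of them differed in opposite directions. Over all genes 1488 passed in both, which is 46.2% and 56.3% of the respective calls, and 95.4% of them had opposite directions. These comparisons set different arrays against each other. Both take the spread of each gene from the same fit over all 8 arrays, so the lists of calls are not independent. The plot of differences with their standard errors shows both columns gene by gene.

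**Figure D1:**
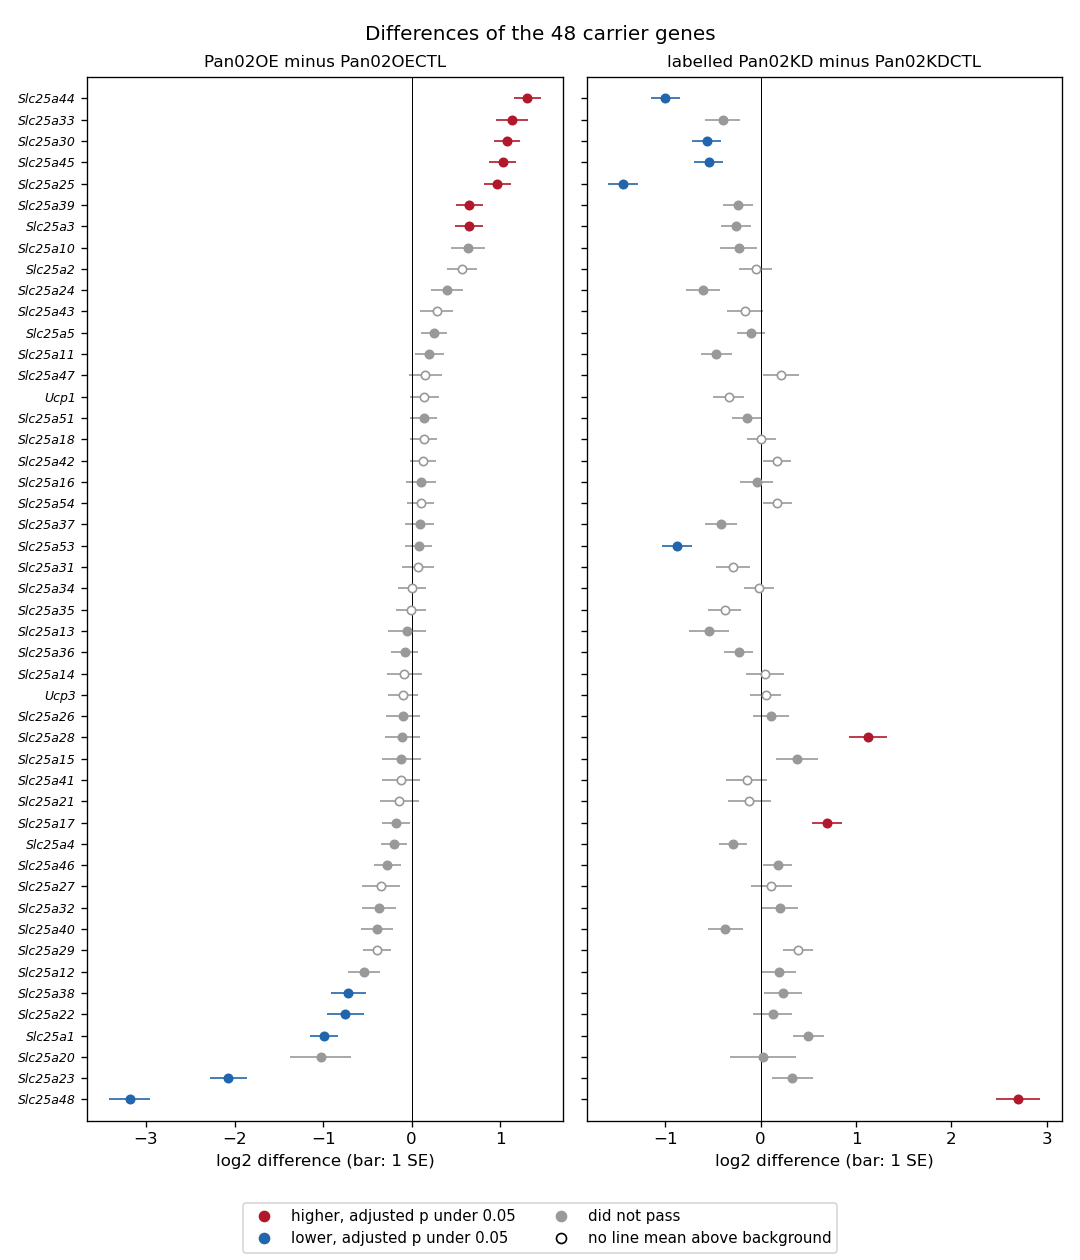
Log2 difference of each of the 48 carrier genes between Pan02OE and Pan02OECTL (left) and between the arrays labelled Pan02KD and Pan02KDCTL (right), in the order of the left panel. Points are differences over 2 arrays a line, bars are 1 standard error from limma, red and blue mark an adjusted p under 0.05 and open points mark the 16 genes with no line mean above background. *Slc25a48* lies at -3.19 on the left and 2.70 on the right.

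*Slc25a48* had the largest difference of the 48 in both comparisons. This carrier has been linked to the import of choline into mitochondria. It read 9.24 in normal medium and 9.01 in H2O2 in Pan02OE, and 12.34 and 12.28 in Pan02OECTL. It read 10.60 and 10.94 in the arrays labelled Pan02KD, and 8.44 and 7.70 in Pan02KDCTL. The 4 lines were fully separated, with Pan02OECTL at the top, then the arrays labelled Pan02KD, then Pan02OE, and Pan02KDCTL lowest and close to background in H2O2. Expression in Pan02OE fell by 3.19 on the log2 scale (SE 0.23, 9.10-fold, adjusted p = 2.72e-05) relative to its control. It rose by 2.70 in the arrays labelled Pan02KD (SE 0.23, 6.50-fold, adjusted p = 0.00012). Both calls held under every one of 16 alternative settings.

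Among carriers of ADP, ATP and phosphate, the ATP-Mg/phosphate carriers, which are switched by calcium and set the adenine nucleotide pool of the matrix, went different ways. *Slc25a25* read 12.00 and 11.82 in Pan02OE, 10.91 and 10.98 in Pan02OECTL, 10.67 and 10.65 in the arrays labelled Pan02KD, and 12.21 and 11.99 in Pan02KDCTL. Pan02OE and Pan02KDCTL were thus high and the other 2 lines low, with no overlap. It rose by 0.97 in Pan02OE (SE 0.16, 1.96-fold, adjusted p = 0.0025) and fell by 1.44 in the arrays labelled Pan02KD (SE 0.16, 2.72-fold, adjusted p = 0.00044).

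*Slc25a23*, another member of that trio, read 7.41 and 7.92 in Pan02OECTL and between 5.17 and 5.81 on the 6 other arrays. Only the line mean of Pan02OECTL was above background, with 1 of its 2 arrays above it. The measured difference in Pan02OE was -2.07 (SE 0.21, adjusted p = 0.00022), of which the background limit leaves a fall of at least 1.14-fold. In the arrays labelled Pan02KD it was 0.33 (adjusted p = 0.39), with both lines below background. *Slc25a24*, the third of them, had line means of 15.44 in Pan02OE, 15.04 in Pan02OECTL, 14.31 in the arrays labelled Pan02KD and 14.91 in Pan02KDCTL. Its differences of 0.40 (adjusted p = 0.18) and -0.60 (adjusted p = 0.056) did not pass, while the difference between them did, at 1.00 (95% interval from 0.43 to 1.57, adjusted p = 0.019).

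The phosphate carrier *Slc25a3*, which supplies phosphate for ATP synthesis, read 15.94 and 15.99 in Pan02OE and 15.35 and 15.29 in Pan02OECTL. It was higher in Pan02OE by 0.64 (SE 0.16, adjusted p = 0.020), a call lost when any 1 of these 4 arrays was left out (adjusted p up to 0.17). In the arrays labelled Pan02KD it read 15.57 and 15.28 against 15.70 and 15.65. The ADP/ATP carriers *Slc25a4* and *Slc25a5* passed in no comparison. *Slc25a4* read between 13.62 and 13.97, and *Slc25a5* between 15.72 and 16.27.

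**Figure D2:**
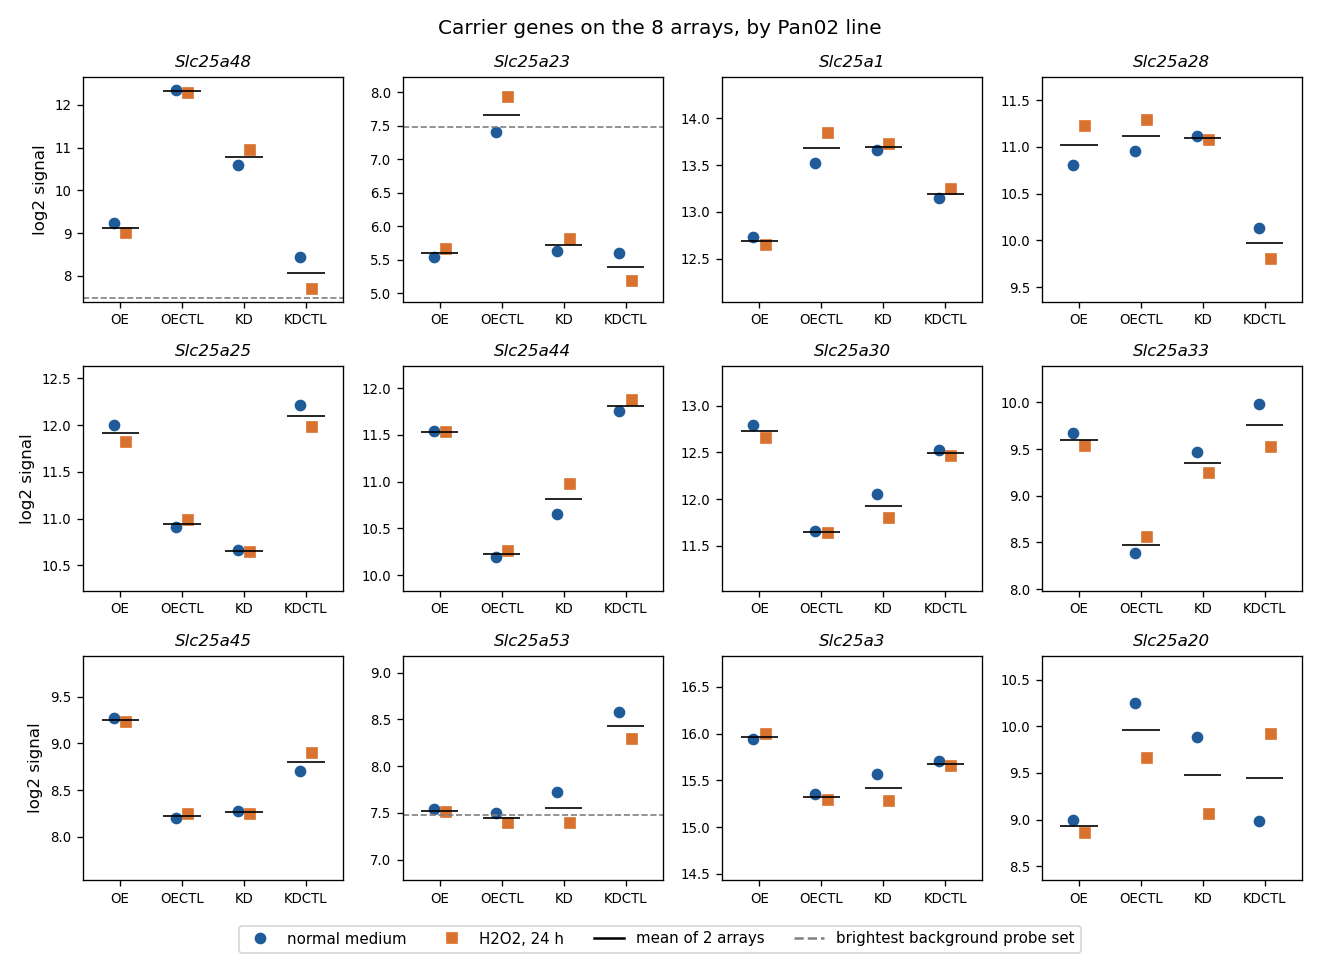
Log2 signal of 12 carrier genes on the 8 arrays, by line, with circles for normal medium, squares for H2O2, a bar for the mean of the 2 arrays and a dashed line at the brightest background probe set (7.48) where it falls in range; each panel has its own axis, which spans at least 2.4 units. *Slc25a25*, *Slc25a44*, *Slc25a30* and *Slc25a45* are high in Pan02OE and Pan02KDCTL and low in Pan02OECTL and the arrays labelled Pan02KD, and *Slc25a20* shows the spread between media of a gene that did not pass.

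Among organic acid carriers, the citrate carrier *Slc25a1*, which exports citrate for fatty acid synthesis, read 12.73 and 12.64 in Pan02OE and 13.52 and 13.84 in Pan02OECTL. It read 13.66 and 13.73 in the arrays labelled Pan02KD, and 13.15 and 13.24 in Pan02KDCTL. Pan02OE was the lowest line, below every other array. *Slc25a1* fell by 0.99 in Pan02OE (SE 0.16, 1.99-fold, adjusted p = 0.0026), and its difference of 0.50 in the arrays labelled Pan02KD did not pass (adjusted p = 0.073). The dicarboxylate carrier *Slc25a10* had differences of 0.64 and -0.23, neither of which passed, with a difference between them of 0.87 that did. The oxoglutarate carrier *Slc25a11*, of the malate-aspartate shuttle, read between 13.56 and 14.36 and passed in neither.

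*Slc25a20* brings acylcarnitines into the matrix for fatty acid oxidation. It read 9.00 and 8.86 in Pan02OE and 10.25 and 9.66 in Pan02OECTL. In the arrays labelled Pan02KD it read 9.89 and 9.06, and in Pan02KDCTL 8.98 and 9.92. The last pair of lines overlapped, and their differences between media were opposite in sign, with 1 array a medium and no test of it. Its difference in Pan02OE was -1.03 (95% interval from -1.81 to -0.24, adjusted p = 0.079), and in the arrays labelled Pan02KD 0.02 (from -0.76 to 0.81, adjusted p = 0.98).

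Of the amino acid carriers, *Slc25a44*, which brings branched-chain amino acids into mitochondria, read 11.54 and 11.52 in Pan02OE and 10.19 and 10.26 in Pan02OECTL. It read 10.65 and 10.98 in the arrays labelled Pan02KD and 11.76 and 11.87 in Pan02KDCTL. As for *Slc25a25*, Pan02OE and Pan02KDCTL were above the other 2 lines without overlap. *Slc25a44* rose by 1.31 in Pan02OE (SE 0.16, 2.47-fold, adjusted p = 0.0005) and fell by 1.00 in the arrays labelled Pan02KD (SE 0.16, 2.00-fold, adjusted p = 0.0028). Both calls held in all 16 alternatives.

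The glycine carrier *Slc25a38*, which feeds heme synthesis, read 9.18 and 9.37 in Pan02OE and 9.98 and 10.01 in Pan02OECTL, a difference of -0.72 (SE 0.20, adjusted p = 0.037). The glutamate carrier *Slc25a22* read 7.15 and 6.78 in Pan02OE, below background, and 7.78 and 7.65 in Pan02OECTL. Its measured difference was -0.75 (adjusted p = 0.037), and the bound that background leaves is 1.18-fold. Each of these calls was lost in 6 of 16 alternatives, among them without either Pan02OECTL array, without the Pan02OE array in H2O2 and without either Pan02KD array (adjusted p up to 0.29 for *Slc25a22* and 0.28 for *Slc25a38*). The aspartate-glutamate carriers *Slc25a12* and *Slc25a13* and the ornithine carrier *Slc25a15* passed in no comparison.

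Of the carriers of cofactors and nucleotides, *Slc25a33*, a pyrimidine nucleotide carrier, read 9.67 and 9.53 in Pan02OE and 8.39 and 8.56 in Pan02OECTL. It was higher in Pan02OE by 1.13 (SE 0.18, 2.19-fold, adjusted p = 0.0024). The arrays labelled Pan02KD read 9.47 and 9.24 and those of Pan02KDCTL 9.98 and 9.53, a difference that did not pass, so Pan02OECTL alone stood low. *Slc25a39*, which carries glutathione into mitochondria, read 15.70 and 15.77 in Pan02OE and 15.15 and 15.00 in Pan02OECTL, higher by 0.65 (adjusted p = 0.019, and up to 0.16 when any 1 of these 4 arrays was left out). Its relative *Slc25a40* did not pass. *Slc25a17*, the peroxisomal carrier of coenzyme A and other cofactors, read 12.17 and 12.22 in the arrays labelled Pan02KD and 11.52 and 11.48 in Pan02KDCTL, higher by 0.69 (SE 0.16, 1.62-fold, adjusted p = 0.018, and up to 0.18 when any 1 of these 4 arrays was left out).

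The iron carriers, mitoferrin 1 (*Slc25a37*) and mitoferrin 2 (*Slc25a28*), both had line means above background. *Slc25a28* read 11.12 and 11.07 in the arrays labelled Pan02KD and 10.14 and 9.80 in Pan02KDCTL. The Pan02OE arrays read 10.81 and 11.22 and those of Pan02OECTL 10.95 and 11.29, so Pan02KDCTL alone stood low. The difference in the arrays labelled Pan02KD was 1.13 (SE 0.20, 2.18-fold, adjusted p = 0.0059). It no longer passed without the normal-medium Pan02KD array or without the Pan02KDCTL array in H2O2 (adjusted p up to 0.067). *Slc25a37* read between 11.44 and 12.08 and passed nowhere.

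*Slc25a30*, a relative of the uncoupling proteins known from kidney, read 12.80 and 12.66 in Pan02OE and 11.66 and 11.64 in Pan02OECTL. It read 12.05 and 11.80 in the arrays labelled Pan02KD and 12.53 and 12.46 in Pan02KDCTL. Pan02OE and Pan02KDCTL were again above the other lines. It rose by 1.07 in Pan02OE (SE 0.15, 2.11-fold, adjusted p = 0.0012) and was lower by a log2 difference of -0.57 in the arrays labelled Pan02KD (SE 0.15, adjusted p = 0.035), where the call was lost in 9 of 16 alternatives, among them without any 1 of the 8 arrays (adjusted p up to 0.27).

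Among carriers with no settled substrate, *Slc25a45* read 9.27 and 9.23 in Pan02OE, 8.20 and 8.24 in Pan02OECTL, 8.28 and 8.24 in the arrays labelled Pan02KD, and 8.71 and 8.90 in Pan02KDCTL. It followed the same order of lines, rose by 1.03 in Pan02OE (SE 0.15, 2.04-fold, adjusted p = 0.0016), and was lower in the arrays labelled Pan02KD (-0.54, adjusted p = 0.044). The latter call was lost in 10 of 16 alternatives, among them without any 1 of the 8 arrays (adjusted p up to 0.27). *Slc25a53* read 8.57 and 8.29 in Pan02KDCTL and between 7.39 and 7.72 on the 6 other arrays, close to the background limit of 7.48 on either side of it. It was lower in the arrays labelled Pan02KD by a log2 difference of -0.88 (SE 0.16, adjusted p = 0.0058, and 0.082 without the Pan02KD array in H2O2).

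The difference between the Pan02OE and the Pan02KD comparison was tested for each gene as well. It passed for 17 of 48 carriers, 35.4% of them beside 22.3% of all genes, with 10 higher and 7 lower. Among genes with a line mean above background, 11 of 32 carriers were higher and 8 lower, beside 2057 and 2511 of 8787 genes. The largest among genes above background in all lines were those of *Slc25a48* (-5.89, SE 0.33), *Slc25a25* (2.41) and *Slc25a44* (2.31). That of *Slc25a23* passed too but has no place in this order, since 3 of its 4 lines were below background. *Slc25a10*, *Slc25a24* and *Slc25a29* passed here and in neither comparison alone, and *Slc25a29* was below background in every line. Over all 48, 37 had opposite signs in the 2 comparisons (77.1%), beside 63.2% of all genes. Both shares include genes below background in every line, whose signs say little, such as *Slc25a34* (0.004 and -0.016). *Slc25a1*, *Slc25a23*, *Slc25a25*, *Slc25a30*, *Slc25a33*, *Slc25a44*, *Slc25a45* and *Slc25a48* passed under all 15 alternatives run here. Each of the other 9 was lost in at least 3 of the 8 fits that left out 1 array, with adjusted p up to 0.197 for *Slc25a10* and up to 0.155 for the rest. The count of 17 fell to 10 without the normal-medium Pan02OECTL array or the Pan02OE array in H2O2, and to 9 without the Pan02OECTL or the Pan02KD array in H2O2.

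Since neither control line carried an NLRX1 construct, they were compared with each other. Between Pan02KDCTL and Pan02OECTL, 12 of 48 carriers passed, 25% of them beside 16.9% of all genes, with 8 higher and 4 lower in Pan02KDCTL. Among genes with a line mean above background, 10 of 32 carriers were higher and 6 lower, beside 1666 and 2066 of 8787 genes. *Slc25a48* was lower in Pan02KDCTL by a log2 difference of -4.24 (SE 0.23, adjusted p = 3.79e-06). *Slc25a44* was higher by 1.59 (SE 0.16, adjusted p = 0.00013), *Slc25a33* by 1.28 (adjusted p = 0.0011), *Slc25a25* by 1.15 (adjusted p = 0.00088), *Slc25a53* by at least 0.95 with the mean of Pan02OECTL at background, and *Slc25a30* by 0.84 (adjusted p = 0.0044). *Slc25a11*, *Slc25a39* and *Slc25a45* were higher by 0.58 to 0.62. *Slc25a28* was lower (-1.15, adjusted p = 0.0039), and *Slc25a23* was lower with Pan02KDCTL at background. *Slc25a29* passed too with both lines at background. The control lines differ in vector system as well as in what each insert does, which cannot be told apart, and each control array also enters the comparison of its modified line. Without either Pan02OECTL array 7 carriers passed. The calls of *Slc25a11* and *Slc25a29* were lost in 8 of 16 and 10 of 15 alternatives, *Slc25a11* without any 1 array but that of Pan02KDCTL in normal medium (adjusted p up to 0.22) and *Slc25a29* without any 1 of the 8 (up to 0.23). Those of *Slc25a39* and *Slc25a45* were lost without either Pan02OECTL array or without 1 of the Pan02KDCTL arrays (up to 0.17 and 0.15). That of *Slc25a28* was lost without the Pan02OECTL array in H2O2 (0.055), and that of *Slc25a30* without the one in normal medium (0.053).

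To ask whether the challenge moved the carriers, H2O2 was compared with normal medium over the 4 lines. None of the 48 passed, and none had an unadjusted p under 0.05. Over all genes 0% passed, 6.31% had an unadjusted p under 0.05, and the lowest adjusted p was 0.26. The average differences ran from -0.33 to 0.24, with a median size of 0.09 (0.10 over all genes). Within single lines, where 1 array a medium allows no test, no carrier differed 2-fold. Over all genes between 33 (0.169%, Pan02OECTL) and 271 (1.39%, Pan02KDCTL) did. With shares this small, none among 48 does not set the carriers apart. The widest were those of *Slc25a20*, at -0.83 in the arrays labelled Pan02KD and 0.94 in Pan02KDCTL, which are opposite in sign. Only *Slc25a5*, *Slc25a30*, *Slc25a51*, *Slc25a53* and *Ucp1* kept 1 sign in all 4 lines, each with differences smaller than 0.5.

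**Figure D3:**
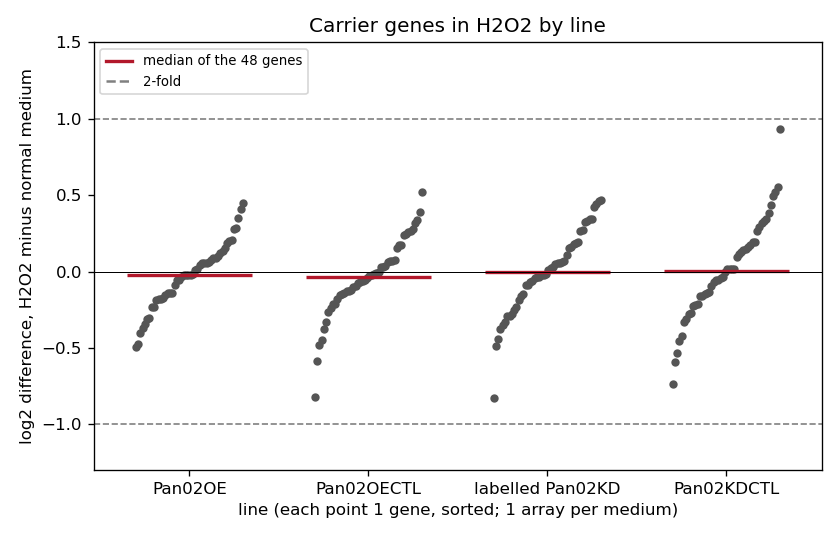
Log2 difference between H2O2 and normal medium for the 48 carrier genes within each line, 1 array a medium, with genes sorted within a line, red bars at the median and dashed lines at a 2-fold difference. No point reaches the 2-fold lines, and the farthest is *Slc25a20* in Pan02KDCTL at 0.94.

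Genes that act with the carriers were followed as lists. Of 10 genes for carrier import by TIM22, 5 were higher in Pan02OE and none lower, beside 7.02% and 9.49% of all genes. The share over all genes includes many below background, while 7 of these 10 were above it on every array, the 5 among them. In the fit of genes with a line mean above background, 1661 of 8787 were higher. The 5 were the small chaperones *Timm8a1* (0.96), *Timm13* (0.70) and *Timm10* (0.61), the TIM22 subunit *Timm29* (0.57), and *Tomm70a* (0.54), the outer membrane receptor for carriers. The median of the list was 0.44 beside 0.04 over all genes. Only *Timm10* passed in the arrays labelled Pan02KD, at -0.62, where 5.97% of all genes were lower. Between the controls *Timm8a1*, *Timm13* and *Timm10* were higher in Pan02KDCTL, beside 7.64% of all genes. Of 21 other mitochondrial transporters measured, 7 were lower in Pan02OE and none higher, beside 9.49% and 7.02% of all genes. Here 17 of the 21 were above background on every array. In the fit of genes with a line mean above background, 2045 of 8787 were lower and 1661 higher. Among the 7 were *Micu2* (-1.36) and *Mcu* (-0.64) of the calcium uniporter, and the sideroflexins *Sfxn3* (-1.36) and *Sfxn1* (-0.72). *Tspo* (-1.16), an outer membrane protein that binds cholesterol, was another. *Abcb10* of the 7 was below background in every line. The arrays labelled Pan02KD had 4 of the 21 higher, namely *Tspo* (1.67), *Sfxn3* (1.13), *Mcu* (0.69) and *Vdac3* (0.64). *Mtch2* and *Abcb8* were lower there. Over all genes 7.59% were higher and 5.97% lower in those arrays. Between the controls, 6 of the 21 were lower in Pan02KDCTL than in Pan02OECTL and 2 were higher, beside 9.28% and 7.64% of all genes. The 6 included *Sfxn3* (-1.09), *Mcu* (-1.01), *Tspo* (-0.93) and *Sfxn1* (-0.83), so Pan02OECTL stood above both lines for these genes.

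Enzymes that use what the carriers move were followed in 4 lists. Over all genes 7.02% were higher and 9.49% lower in Pan02OE, and 7.59% and 5.97% in the arrays labelled Pan02KD. In the malate-aspartate and glycerol phosphate shuttles only *Mdh2* of 7 passed in these comparisons. Its differences were 0.51 in Pan02OE and -0.66 in the arrays labelled Pan02KD. Of 7 genes for citrate export and use, *Idh1* (-1.10) and *Aco1* (-0.66) were lower in Pan02OE, and *Aco1* was higher in the arrays labelled Pan02KD (0.62). In the carnitine system *Cpt1a*, the entry enzyme of fatty acid oxidation, was lower in Pan02OE (-0.75), and none of 7 passed in the arrays labelled Pan02KD. Of 8 ornithine and glutamate genes, *Odc1* was lower in Pan02OE (-0.71) and higher in the arrays labelled Pan02KD (0.82). *Aldh18a1* was lower in Pan02OE too (-0.77). Between the controls, *Mdh1* (0.71), *Oat* (0.67), *Mdh2* (0.59) and *Got2* (0.53) were higher in Pan02KDCTL, beside 7.64% of all genes. *Aco1* (-0.89), *Crot* (-0.62) and *Odc1* (-0.51) were lower there, beside 9.28% of all genes.

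Regulators of uncoupling protein genes differed as well. *Ppargc1a* encodes PGC-1α, a coactivator that raises mitochondrial gene expression and *Ucp1* in brown fat. Its line means were 13.69 in Pan02OE, 10.49 in Pan02OECTL, 9.80 in the arrays labelled Pan02KD and 13.88 in Pan02KDCTL. It rose by 3.19 in Pan02OE (SE 0.19, adjusted p = 8.19e-06) and fell by 4.09 in the arrays labelled Pan02KD (SE 0.19, adjusted p = 3.12e-06), so the high lines were those in which *Slc25a25*, *Slc25a44*, *Slc25a30* and *Slc25a45* were high. *Pparg* was higher in Pan02OE, with line means of 8.65 there and 6.57 in Pan02OECTL. The latter lay below background, so the measured difference of 2.08 does not give the size of the rise. *Pparg* was lower in the arrays labelled Pan02KD (-1.10), and *Ppargc1b* was lower in Pan02OE (-1.21). *Ucp1* stayed at background in the same arrays. Of 5 brown adipocyte markers 4 were below background on every array. The fifth, *Dio2*, had line means of 6.35 in Pan02OE, 10.68 in Pan02OECTL, 11.43 in the arrays labelled Pan02KD and 6.73 in Pan02KDCTL. It was lower in Pan02OE (-4.33, adjusted p = 9.35e-06) and higher in the arrays labelled Pan02KD (4.70, adjusted p = 8.59e-06), each time with the lower line at background.

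**Figure D4:**
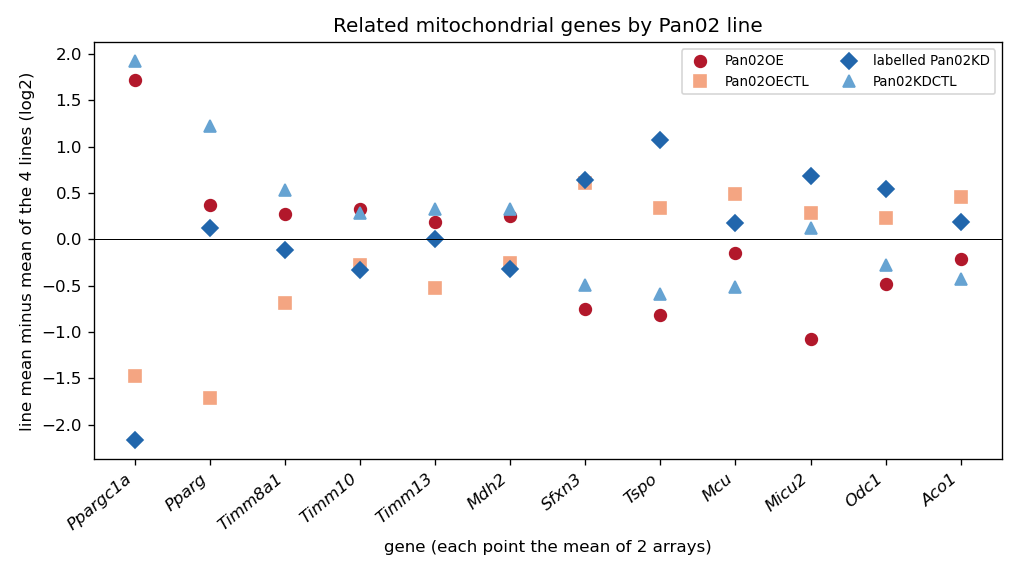
Line means of 12 genes from the related lists, each minus the mean of the 4 lines (log2, 2 arrays a line). *Ppargc1a* is high in Pan02OE (13.69) and Pan02KDCTL (13.88) and low in Pan02OECTL (10.49) and the arrays labelled Pan02KD (9.80), and *Sfxn3* and *Tspo* have the high and low pairs of lines exchanged.

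Of the 48 carriers, 19 passed in at least 1 of the comparisons (39.6%, beside 29.2% of all genes, many of them below background) and 29 in none. Of these 29, 15 were below background in every line and 14 above it in at least 1. The differences of the 29 ran from -1.03 to 0.57 in Pan02OE and from -0.54 to 0.38 in the arrays labelled Pan02KD, which with 2 arrays a line does not show that they were equal. The count in the Pan02KD comparison fell from 8 to 4 without either Pan02KD array or without the Pan02KDCTL array in H2O2. That in Pan02OE fell from 12 to 8 without either Pan02OECTL array or without the Pan02OE array in H2O2. *Slc25a25*, *Slc25a44* and *Slc25a48* kept their calls in both comparisons under all alternatives.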

How the data were processed

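The authors deposited log2 signals of Clariom S arrays run by Thermo Fisher on TRIzol RNA. The submitters' processing notes list the Transcriptome Analysis Console. Its version, probe summarization and normalization were not stated in the sources read. The series lists 9 samples. The ninth, a manufacturer's control RNA, had an empty column. Lines and media came from sample titles. Precision is limited by the number of arrays. Both arrays of a line hold 1 transduced population in different media, so p-values measure the spread between these arrays.

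Probe sets were named through the platform annotation, with all 19572 matched by Entrez identifier to RefSeq (GRCm38.p6), and of several for a gene the one with the highest mean was kept. The limma package (3.58.1, under R 4.3.3) was used with line and medium as additive terms over 8 arrays (3 residual and 6.17 prior degrees of freedom), and p-values were adjusted by Benjamini-Hochberg over 19505 genes. An adjusted p under 0.05 counted as a call. The fit was tested on simulated data. Where 1 line lay below the brightest background probe set, the bound is the higher line mean minus 7.48. The 5 comparisons were each modified line with its control, their difference, the controls, and H2O2 with normal medium. Named were *Nlrx1*, the members called, *Slc25a20* and the uncoupling proteins, and called genes of the lists (epithelial, leukocyte, fibroblast, erythroid and brown adipocyte markers and 7 lists of related genes). Members, lists and comparisons were chosen with earlier results of these data known. Alternatives were other normalizations, filters, all probe sets, variance models, terms and samples in the fit, a lower background limit, and leaving out each array.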

Additional observations from a re-analysis of the deposited data

Results flagged for a closer look

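For 17 carriers the Pan02OE difference and the difference in the arrays labelled Pan02KD were themselves different at an adjusted p under 0.05 by limma (a contrast of the first minus the second, log2). The difference was negative for *Slc25a48* (-5.89), *Slc25a23* (-2.40), *Slc25a1* (-1.49), *Slc25a28* (-1.23), *Slc25a38* (-0.95), *Slc25a17* (-0.87) and *Slc25a29* (-0.78). It was positive for *Slc25a25* (2.41), *Slc25a44* (2.31), *Slc25a30* (1.64), *Slc25a45* (1.57), *Slc25a33* (1.53), *Slc25a24* (1.00), *Slc25a53* (0.96), *Slc25a3* (0.90), *Slc25a39* (0.89) and *Slc25a10* (0.87). *Slc25a29* was below background in every line, and *Slc25a23* in all but Pan02OECTL. The 2 comparisons use different vector systems, and the part of the control lines in these values was not tested beyond the comparison of the controls given above.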

How the results depend on the processing

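No result changed direction under any alternative. Leaving out 1 array at a time gave 8 to 15 called carriers in Pan02OE (12 with all arrays), 4 to 6 in the arrays labelled Pan02KD (8), 9 to 19 for the difference between these comparisons (17), 7 to 12 between the controls (12) and 0 for H2O2. Leaving out an array of a compared line leaves that line 1 array, which is taken to vary like the others. The remaining settings gave 12 to 18, 6 to 11, 16 to 20, 8 to 17 and 0 carriers. Of the called differences of single carriers, 647 of the values under alternatives stayed past the threshold and 118 did not; the cause was not tested. Background limits what can be said of the 16 carriers below it, a number that was also 16 with the median background reading (6.54) as the limit. The medium term pairs the arrays of different lines; without it 14, 9, 18 and 12 carriers were called in the 4 comparisons of lines.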
